A study of Mus musculus with 15 samples.

Results

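The 46 genes examined here encode the machinery that copies DNA and divides the cell: cyclins and their kinases, replication factors, the transcription factors that switch these genes on, and the proteins of mitosis. They were chosen as a named list of symbols, and each symbol matched 1 of the 51826 genes in the deposited tables, so all 46 were measured. Tissue was taken from the mammary glands of 13 female mice and gave 15 RNA-seq libraries. In Trim24COE mice, Cre made from an MMTV promoter (mouse mammary tumor virus, active mainly in mammary epithelium) removes a floxed stop cassette in front of a FLAG-tagged mouse Trim24 cDNA that was inserted by a piggyBac transposon. Their tumors were 3 carcinosarcomas (mice 64, 567 and 897), which hold both epithelial and sarcoma-like areas, and 3 carcinomas (mice 89, 273_5 and 3956). Controls were mammary glands without disease of 4 mice that carry MMTV-Cre alone (133, 392, 417_3 and 517_3). A further group, non-TRIM24 tumors, held 3 carcinomas that arose spontaneously and whose genotype is labelled unknown (219, FVB001 and FVB002). All mice are labelled FVB, although the series text gives the control mice as FVB/129, and the colony consisted of virgin females that were aged. Sequencing ran in batch 1 for the Trim24COE tumors and glands and in batch 2 for the non-TRIM24 tumors, with gland 133 and tumor 3956 sequenced again in batch 2. Tumor classes here are those of the labels, and pathologists differed on tumors 89, 567 and 3956.

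The cell cycle is driven by cyclin-dependent kinases. D cyclins with Cdk4 or Cdk6 and E cyclins with Cdk2 release the E2F transcription factors, which raise the genes of DNA replication. Cyclin A and the B cyclins with Cdk1 then carry the cell through mitosis, where the B-Myb and Foxm1 proteins join the MuvB complex on the promoters of mitotic genes, through a short element called the cell cycle genes homology region (CHR). The same element is bound in resting cells by DREAM, a repressor complex that contains MuvB and E2f4, and CCAAT boxes bound by NF-Y often lie beside it. In the adult virgin gland few epithelial cells divide, whereas dividing cells are a defining feature of carcinomas.

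The promoters of the replication and the mitotic genes were read for these elements. RefSeq windows of the GRCm38.p6 build, 250 bases before to 50 bases after the annotated start, were at hand for 36 of the 46 genes. Searched on both strands were the CHR letters TTTGAA or TTCGAA, the E2F letters TTTGGCGC, TTTCCCGC, TTTGCCGC or TTTCGCGC, and CCAAT; these may overlap one another, as a pair of E2F matches does in Mcm5. Of the 14 windowed genes with mitotic roles (cyclins A and B with Cdk1, mitotic kinases, passenger complex, kinetochore and spindle, anaphase-promoting complex), 11 held CHR letters and 13 held CCAAT, but only 1 held E2F letters. Birc5 held none of them, and Ccnb1 and Cenpe held CCAAT alone. Of the 8 windowed replication genes, 6 held E2F letters, 6 held CCAAT and 2 held CHR letters. Over the windows of all 27025 genes the shares were 21.7% for CHR, 2.60% for E2F and 41.1% for CCAAT. A match is a description of letters, not a site shown to be bound. Printed here are the windows of 3 mitotic and 2 replication genes, shown because they hold 3 combinations of these letters (CHR with CCAAT in Ube2c and Ccnb2, E2F with CCAAT in Mcm6 and Mcm5, all of them in Cdk1), 5′ to 3′ on the gene's strand, with every match in capitals. They lie at chr2:164769679-164769978 (Ube2c, plus strand), chr9:70421505-70421804 (Ccnb2, minus strand), chr10:69352863-69353162 (Cdk1, minus strand), chr1:128359656-128359955 (Mcm6, minus strand) and chr8:75109259-75109558 (Mcm5, plus strand), each across the annotated start of its gene.
Ube2c: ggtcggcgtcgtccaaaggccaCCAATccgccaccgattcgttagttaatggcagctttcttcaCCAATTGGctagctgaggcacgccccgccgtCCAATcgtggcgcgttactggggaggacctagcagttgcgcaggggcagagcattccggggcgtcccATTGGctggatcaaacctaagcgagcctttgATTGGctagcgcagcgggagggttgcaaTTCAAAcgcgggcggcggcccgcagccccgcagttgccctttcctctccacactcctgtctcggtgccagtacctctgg
Ccnb2: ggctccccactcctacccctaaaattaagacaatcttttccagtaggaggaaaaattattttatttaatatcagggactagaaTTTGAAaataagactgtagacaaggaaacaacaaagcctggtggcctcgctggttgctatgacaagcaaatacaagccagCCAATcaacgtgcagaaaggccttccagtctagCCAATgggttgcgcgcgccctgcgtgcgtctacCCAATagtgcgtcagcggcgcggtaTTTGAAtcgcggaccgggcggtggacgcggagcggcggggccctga
Cdk1: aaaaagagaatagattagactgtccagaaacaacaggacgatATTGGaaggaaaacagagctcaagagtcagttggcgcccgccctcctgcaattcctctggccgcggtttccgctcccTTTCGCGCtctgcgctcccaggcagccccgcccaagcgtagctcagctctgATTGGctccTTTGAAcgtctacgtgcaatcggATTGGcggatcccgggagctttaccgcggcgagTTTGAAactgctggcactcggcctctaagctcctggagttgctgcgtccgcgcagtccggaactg
Mcm6: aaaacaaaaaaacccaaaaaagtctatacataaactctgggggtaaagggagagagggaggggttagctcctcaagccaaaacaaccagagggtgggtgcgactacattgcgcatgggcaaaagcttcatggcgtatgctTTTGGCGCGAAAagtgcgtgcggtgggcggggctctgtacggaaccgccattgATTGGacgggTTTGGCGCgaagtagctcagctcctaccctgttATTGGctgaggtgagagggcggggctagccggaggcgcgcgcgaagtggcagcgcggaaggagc
Mcm5: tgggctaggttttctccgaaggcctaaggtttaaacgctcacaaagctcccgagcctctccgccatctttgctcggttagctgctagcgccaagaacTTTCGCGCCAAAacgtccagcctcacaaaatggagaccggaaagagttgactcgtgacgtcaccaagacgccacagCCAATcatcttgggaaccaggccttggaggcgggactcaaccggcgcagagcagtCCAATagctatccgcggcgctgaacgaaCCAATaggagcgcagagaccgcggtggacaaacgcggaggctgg
Counting the annotated start as base 1 and the base before it as -1, the CHR match of Ube2c begins at -29 and 6 CCAAT matches lie upstream of it. Ccnb2 has its nearest CHR match at base 5 after the start, below 3 CCAAT boxes whose first bases are at -87, -54 and -21. Cdk1 holds all 3 kinds of match. Mcm6 holds 3 E2F matches and no CHR match, and Mcm5 holds 2 E2F matches and no CHR match.

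The deposited values are TPM, a measure of transcript abundance scaled to gene length and to the library's total, so levels may be compared between genes within a library. The deposited tables hold no read counts, so depth is not known from them and no counting error is given. The gene Trim24 had a level of 14.5 to 22.4 TPM in glands, against 10.6 to 14.5 TPM in carcinosarcomas, 13.9 to 24.1 TPM in carcinomas and 5.34 to 10.04 TPM among the non-TRIM24 tumors (log2 change of -0.24 ± 0.26 in Trim24COE tumors against glands, limma adjusted p = 0.557). Whether reads of the transgene's transcript count toward this value is not known from the tables, so it does not check the labels, and Trim24COE is used throughout as the libraries' label. Glands differed in makeup: the summed level of 8 adipocyte markers was 9881 TPM in gland 133 and 16660 TPM in gland 392 but 124 and 126 TPM in glands 417_3 and 517_3, against 15.97 to 486 TPM in the Trim24COE tumors and 61.0, 14484 and 29342 TPM in tumors 219, FVB002 and FVB001. None of the 8 was at 0 in any library. The 6 epithelial markers summed to 679 and 1084 TPM in glands 133 and 392, 4574 and 4757 TPM in glands 417_3 and 517_3, 332 to 1393 TPM in the carcinosarcomas, 2194 to 5786 TPM in the carcinomas and 357 to 4846 TPM among non-TRIM24 tumors. Glands 417_3 and 517_3 were also more alike (Spearman correlation 0.972, 3.61% of 14944 genes over 2-fold apart) than the 2 libraries of tumor 3956 (0.960, 4.11%) or of gland 133 (0.948, 6.86%). Each of those repeat pairs spans batches 1 and 2, whereas the 2 glands are both in batch 1, so the batch enters this contrast. Results are also given with glands 417_3 and 517_3 averaged as 1. The 4 macrophage markers summed to 135 to 413 TPM in Trim24COE tumors, 39.9 to 139 TPM in glands and 124 to 247 TPM in non-TRIM24 tumors, 4 fibroblast markers to 1606 to 5553 TPM in carcinosarcomas, 166 to 1760 TPM in carcinomas and 474 to 1066 TPM in glands, and 3 endothelial markers to 34.1 to 145 TPM in Trim24COE tumors and 133 to 245 TPM in glands. Sums were 2.75 to 38.1 and 27.6 to 50.3 TPM for 5 T cell markers, 1.55 to 14.8 and 8.89 to 67.7 TPM for 4 B cell markers, and 10.5 to 581 and 8.9 to 961 TPM for 3 skeletal muscle markers, in Trim24COE tumors and glands. Apart from the adipocyte covariate, the part of these cells in the results was not tested. In bulk tissue, fewer cells of a type and less RNA per cell cannot be told apart.

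**Figure D1:**
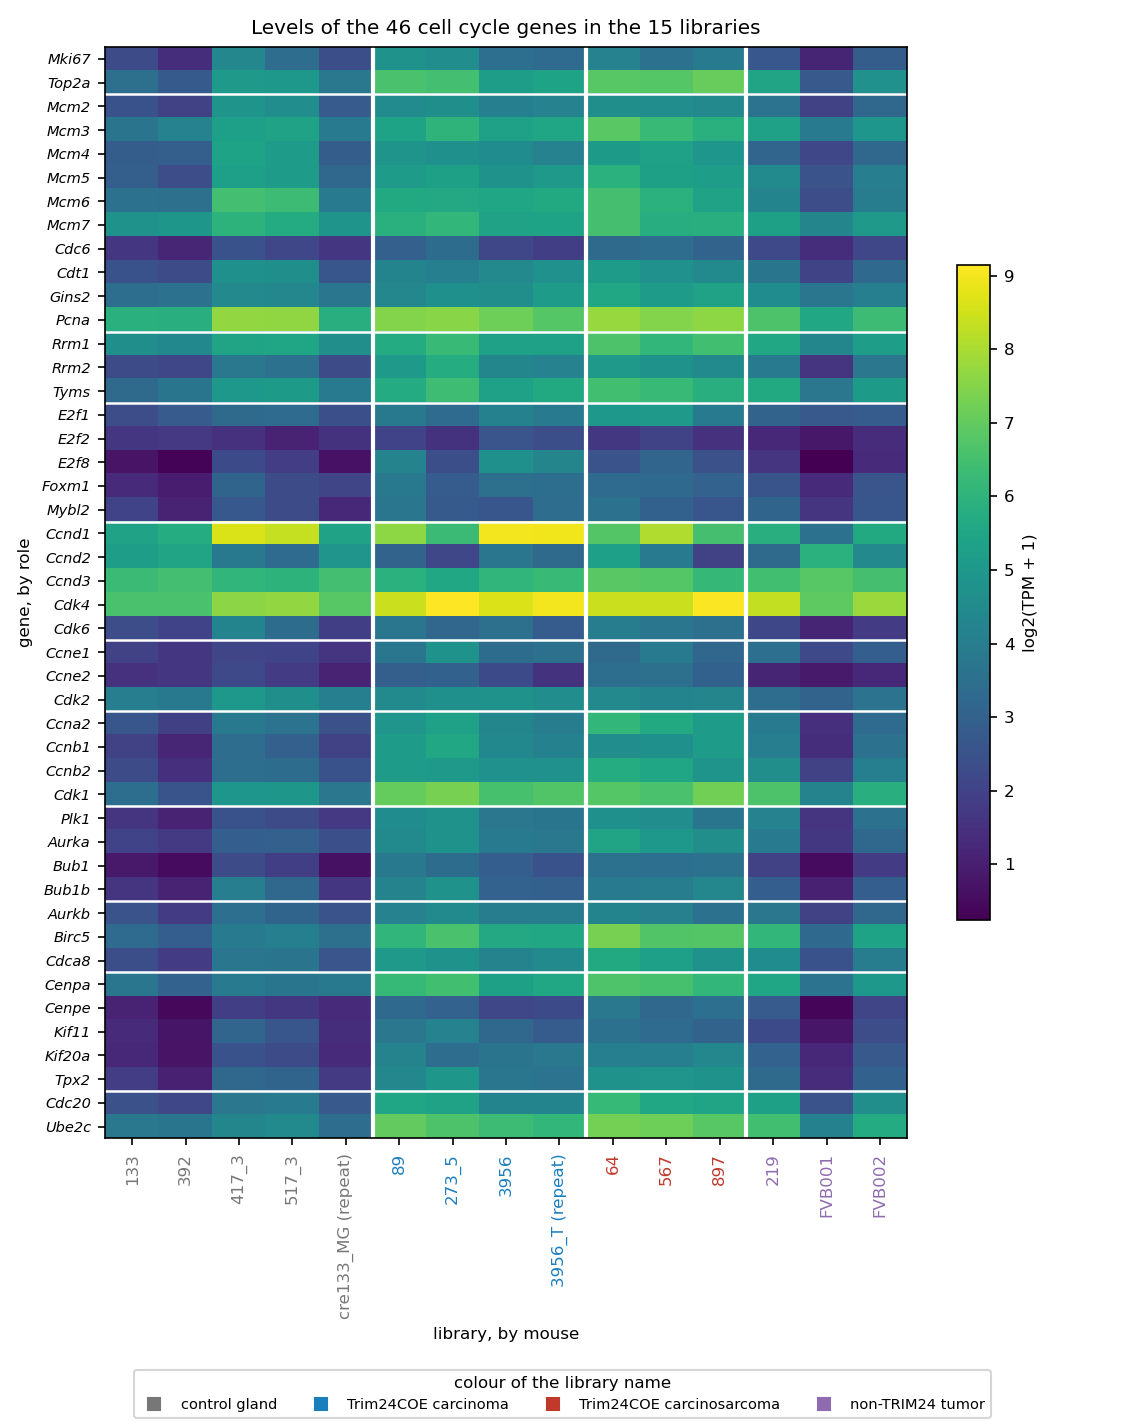
Levels of the 46 genes in the 15 libraries as log2(TPM + 1), with genes in rows grouped by role between white lines and libraries in columns grouped by tissue. Glands 417_3 and 517_3 resemble the tumors in the Mcm rows (Mcm6 at 88.8 and 79.6 TPM) but not in the lowest rows (Ube2c at 19.2 and 21.8 TPM), and FVB001 is low in most rows other than Ccnd2 (59.4 TPM) and Ccnd3 (114 TPM).

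The first comparison asked which of these genes differ between tumors labelled as overexpressing Trim24 and control glands (6 against 4 mice, first libraries of batch 1). In Trim24COE tumors 30 of the 46 genes were higher and 0 were lower at an adjusted p under 0.05 (limma on log2(TPM + 1), Benjamini-Hochberg over the 15196 genes tested). Over all genes tested, 7.96% were called higher and 9.13% lower. The median change of the 46 genes was 1.48 on the log2 scale, against -0.04 for all genes tested; it was 0.85 with the adipocyte marker level as a covariate, 0.83 without glands 133 and 392, and 2.27 without glands 417_3 and 517_3. Of the 46 genes, 45 had a positive value, Ccnd2 being the exception (Ccnd3, at 0.02, turned negative with upper quartile scaling and with quantile normalization). Every tumor lay above every gland for 23 of the 46 genes, which held for 7.39% of all genes tested. By role, all 4 genes of cyclins A and B with Cdk1, all 3 of the passenger complex, all 5 of the kinetochore and spindle and both of the anaphase-promoting complex were called, whereas 3 of 10 replication genes and 1 of 5 genes of the D cyclin group were called. With the adipocyte covariate 12 genes were called, and 16 when glands 133 and 392 were left out, each of them among the 30. Without glands 417_3 and 517_3, 41 genes were called, and 28 with both averaged as 1.

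**Figure D2:**
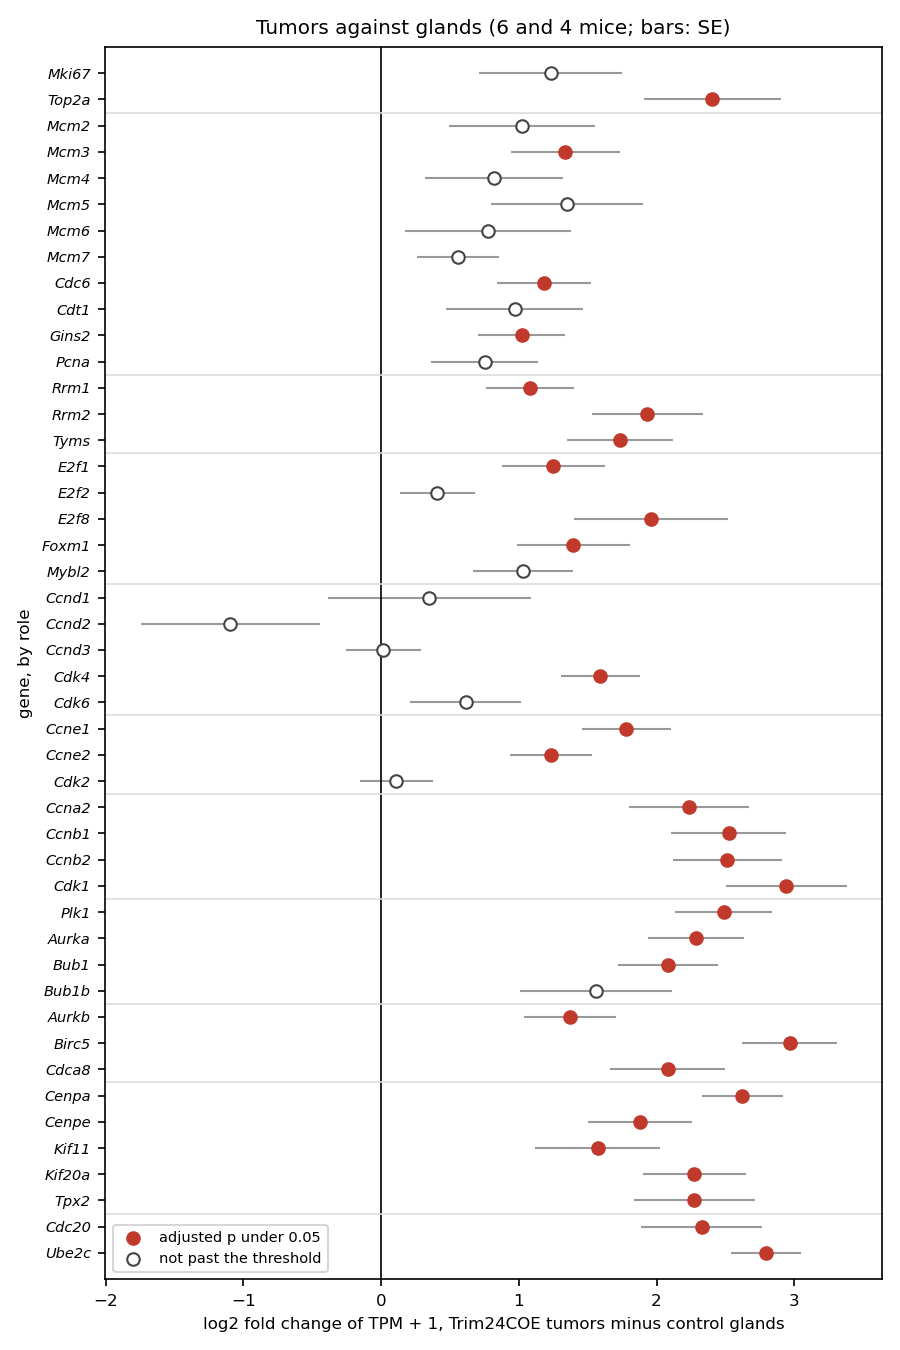
Log2 fold change of TPM + 1 between 6 Trim24COE tumors and 4 control glands for each of the 46 genes, by role, with bars for the standard error and filled points for an adjusted p under 0.05. The mitotic genes at the bottom lie between 1.37 (Aurkb) and 2.97 (Birc5), and the Mcm genes between 0.56 (Mcm7) and 1.35 (Mcm5).

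Of the proliferation markers, Mki67, whose protein coats chromosomes in dividing cells and is the pathologist's Ki-67, did not separate the groups. Mki67 was at 17.03, 11.1 and 13.9 TPM in carcinosarcomas 64, 567 and 897, 26.7, 23.1 and 10.2 TPM in carcinomas 89, 273_5 and 3956, 3.81, 1.64, 19.4 and 9.66 TPM in glands 133, 392, 417_3 and 517_3, and 5.31, 1.21 and 6.32 TPM in tumors 219, FVB001 and FVB002. Gland 417_3 was above 4 of the 6 Trim24COE tumors, and the change of 1.23 ± 0.52 (log2, SE) had an adjusted p of 0.125 in limma. Top2a, the topoisomerase that untangles sister chromatids, was at 114, 109 and 135 TPM in the carcinosarcomas, 94.3, 88.5 and 35.4 TPM in the carcinomas, 10.5, 5.85, 32.6 and 30.3 TPM in the glands and 42.6, 5.64 and 25.7 TPM in the non-TRIM24 tumors. Every Trim24COE tumor was above every gland, although carcinoma 3956 was only just so, and the change was 2.41 ± 0.50 (limma adjusted p = 0.00883).

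Replication genes overlapped between tumors and glands. The Mcm2 to Mcm7 proteins form the helicase that opens DNA. Mcm6 was at 90.3, 59.4 and 39.8 TPM in the carcinosarcomas, 49.1, 47.4 and 44.1 TPM in the carcinomas, 10.8, 10.5, 88.8 and 79.6 TPM in the glands and 18.3, 4.07 and 14.9 TPM in the non-TRIM24 tumors, in the order of mice given above. Glands 417_3 and 517_3 exceeded all Trim24COE tumors other than 64, glands 133 and 392 were below all of them, and limma gave 0.78 ± 0.60 with an adjusted p of 0.397. Pcna, the clamp that holds the polymerase on DNA, showed the same order, at 216, 179 and 199 TPM in the carcinosarcomas, 177, 188 and 145 TPM in the carcinomas, 57.7, 55.99, 209 and 201 TPM in the glands and 101, 45.2 and 79.8 TPM in the non-TRIM24 tumors. The 10 genes of this role summed to 381 to 721 TPM in the Trim24COE tumors, 141 and 144 TPM in glands 133 and 392, and 556 and 513 TPM in glands 417_3 and 517_3. None of the 10 had every tumor above every gland. Pcna has an annotated processed copy, Pcna-ps2, whose level reached 13.4 TPM in gland 392, so its reads may be split between them.

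Of the 10, those called higher in the tumors were Mcm3, Gins2 and Cdc6. Mcm3 was at 116, 74.7 and 58.6 TPM in the carcinosarcomas, 41.5, 64.3 and 39.6 TPM in the carcinomas, 11.7, 17.3, 37.5 and 40.6 TPM in the glands and 39.5, 13.5 and 29.1 TPM in the non-TRIM24 tumors, with 5 of 6 Trim24COE tumors above all glands. Its change was 1.34 ± 0.40 (limma adjusted p = 0.041). Gins2, a subunit of the GINS complex that activates the helicase, was at 46.5, 34.6 and 40.5 TPM in the carcinosarcomas, 19.4, 25.3 and 24.1 TPM in the carcinomas, 9.86, 10.8, 20.8 and 19.6 TPM in the glands and 22.7, 12.4 and 16.1 TPM in the non-TRIM24 tumors. Tumors 64, 567 and 897 stood highest, carcinoma 89 was among the glands, and the change was 1.02 ± 0.31 (limma adjusted p = 0.0462). Cdc6, which loads the helicase at origins, was at 8.91, 9.77 and 7.41 TPM in the carcinosarcomas, 6.81, 9.39 and 3.36 TPM in the carcinomas, 2.1, 1.28, 4.65 and 3.37 TPM in the glands and 3.61, 1.65 and 3.34 TPM in the non-TRIM24 tumors. Carcinoma 3956 fell inside the range of the glands, and the change was 1.18 ± 0.34 (limma adjusted p = 0.0366). All 3 calls were lost without any one of mice 64, 567, 897, 273_5, 133 and 392, and with no filter on low levels. They were also lost with the adipocyte covariate and when glands 133 and 392 were both left out. The other Mcm genes and Cdt1 had changes of 0.56 to 1.35 with adjusted p of 0.114 to 0.397 (limma).

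All 3 listed genes of nucleotide supply were called. Rrm2, the regulated subunit of ribonucleotide reductase, was at 31.6, 26.8 and 21.2 TPM in the carcinosarcomas, 31.3, 53.5 and 18.8 TPM in the carcinomas, 3.9, 3.42, 13.1 and 11.2 TPM in the glands and 14.2, 1.97 and 12.7 TPM in the non-TRIM24 tumors. Each Trim24COE tumor was above each gland, by 1.93 ± 0.40 on average (limma adjusted p = 0.00922). Tyms, thymidylate synthase, was at 86.9, 76.2 and 56.2 TPM in the carcinosarcomas, 52.02, 82.2 and 39.1 TPM in the carcinomas, 9.0, 11.9, 30.6 and 32.9 TPM in the glands and 49.3, 12.5 and 32.8 TPM in the non-TRIM24 tumors. The groups did not overlap and differed by 1.73 ± 0.39 (limma adjusted p = 0.0125). Rrm1, the large subunit of the same reductase as Rrm2, changed by 1.08 ± 0.32 (limma adjusted p = 0.0393), from 20.2 to 44.8 TPM in glands to 39.0 to 98.8 TPM in Trim24COE tumors. Its call was lost without any one of the same 6 mice, and with upper quartile scaling (limma adjusted p = 0.0502). It was also lost with quantile normalization and with no filter. The calls of Rrm1, Rrm2 and Tyms were all lost with the adipocyte covariate and when glands 133 and 392 were both left out.

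Transcription factors of the cycle had low levels, from 0.18 to 31.7 TPM over all libraries. E2f1, an activating E2F, was at 30.7, 31.7 and 13.9 TPM in the carcinosarcomas, 13.4, 9.2 and 16.7 TPM in the carcinomas, 4.1, 5.91, 9.08 and 9.31 TPM in the glands and 7.51, 5.65 and 6.17 TPM in the non-TRIM24 tumors. Carcinosarcomas 64 and 567 were highest, carcinoma 273_5 was at the level of glands 417_3 and 517_3, and the change was 1.25 ± 0.38 (limma adjusted p = 0.0424). E2f8, a repressing E2F, was at 4.67, 7.81 and 4.46 TPM in the carcinosarcomas, 17.8, 4.24 and 24.8 TPM in the carcinomas, 0.62, 0.24, 3.68 and 2.64 TPM in the glands and 1.95, 0.18 and 1.44 TPM in the non-TRIM24 tumors. Carcinomas 3956 and 89 stood above every other mouse, no Trim24COE tumor was as low as a gland, and the change was 1.96 ± 0.56 (limma adjusted p = 0.035). Foxm1, the mitotic forkhead factor, was at 9.2, 8.76 and 7.25 TPM in the carcinosarcomas, 13.3, 6.18 and 10.6 TPM in the carcinomas and 1.5, 0.9, 7.66 and 4.01 TPM in the glands, a change of 1.39 ± 0.41 (limma adjusted p = 0.0392) with gland 417_3 inside the range of the tumors. Mybl2, which encodes B-Myb, gave 1.03 ± 0.36 with an adjusted p of 0.0732, and E2f2 stayed between 1.19 and 5.04 TPM in tumors and glands alike (0.41 ± 0.27, adjusted p = 0.323; limma). The 3 calls in this role were lost without any one of mice 133, 392, 517_3, 567 and 3956. They were also lost with no filter, with the adipocyte covariate, and when glands 133 and 392 were both left out.

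None of the 3 D cyclins passed the test. Ccnd1 encodes cyclin D1, which links growth signals to the cycle, and was at 107, 270.1 and 89.7 TPM in the carcinosarcomas, 199, 77.4 and 510.3 TPM in the carcinomas, 40.4, 53.3, 396 and 325 TPM in the glands and 56.9, 11.2 and 49.3 TPM in the non-TRIM24 tumors. Carcinoma 3956 and glands 417_3 and 517_3 had the highest levels, the groups overlapped throughout, and the change was 0.35 ± 0.74 (limma adjusted p = 0.781). Ccnd2, which encodes cyclin D2, was at 37.8, 13.6 and 2.98 TPM in the carcinosarcomas, 7.42, 3.43 and 12.2 TPM in the carcinomas, 35.3, 41.96, 13.2 and 9.09 TPM in the glands and 8.88, 59.4 and 20.8 TPM in the non-TRIM24 tumors. Its highest levels were in FVB001, gland 392, carcinosarcoma 64 and gland 133, of which 3 are libraries with many adipocyte transcripts, and the change was -1.10 ± 0.65 (limma adjusted p = 0.269). Ccnd3 was at 45.8 to 115 TPM in Trim24COE tumors, 62.1 to 87.7 TPM in glands and 85.8 to 114 TPM in non-TRIM24 tumors, with a change of 0.02 ± 0.27 (limma adjusted p = 0.976). Among the kinases, Cdk4 was the most abundant transcript of the set in 12 of the 15 libraries, at 341, 347 and 542 TPM in the carcinosarcomas, 345, 564 and 412 TPM in the carcinomas, 95.1, 94.2, 191 and 207 TPM in the glands and 317, 121 and 222 TPM in the non-TRIM24 tumors. Every Trim24COE tumor exceeded every gland and every non-TRIM24 tumor, and the change against glands was 1.59 ± 0.29 (limma adjusted p = 0.00472). Cdk6, the second D cyclin kinase, gave 0.61 ± 0.41 (adjusted p = 0.32, limma), and gland 417_3 had its highest level of 18.1 TPM.

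**Figure D3:**
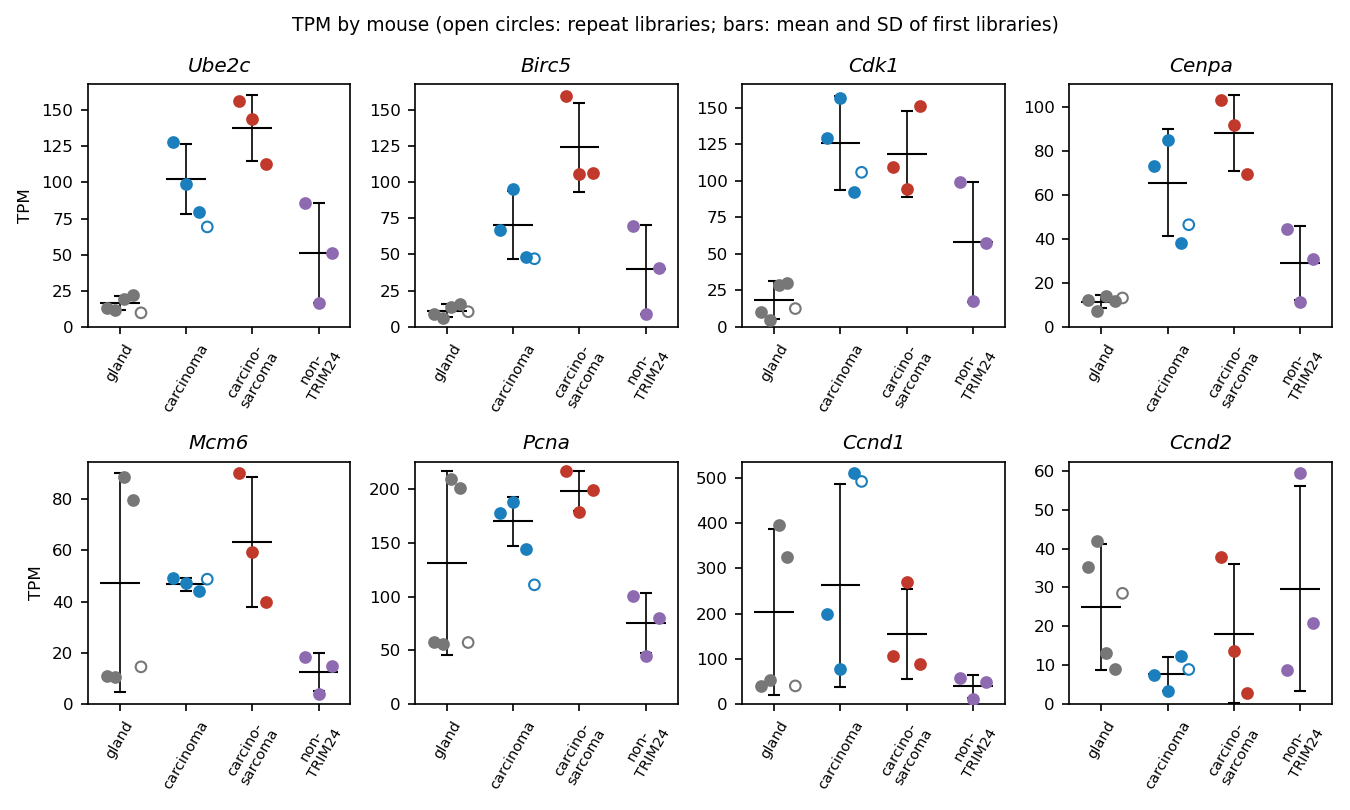
TPM of 8 genes by mouse and group, with open circles for repeat libraries and black lines for the mean and SD of the first libraries. Ube2c, Birc5, Cdk1 and Cenpa in the upper row are higher in every Trim24COE tumor than in any gland, whereas in the lower row glands 417_3 and 517_3 reach tumor levels of Mcm6, Pcna and Ccnd1, and Ccnd2 is highest in FVB001 at 59.4 TPM.

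E cyclins were low but separated the groups, while their kinase did not. Ccne1 was at 8.97, 14.1 and 8.05 TPM in the carcinosarcomas, 12.4, 26.6 and 9.57 TPM in the carcinomas, 2.9, 2.17, 3.3 and 3.12 TPM in the glands and 10.2, 3.63 and 6.54 TPM in the non-TRIM24 tumors. Carcinoma 273_5 had the highest level, no Trim24COE tumor reached down to a gland, and the change was 1.78 ± 0.32 (limma adjusted p = 0.0048). Ccne2 was at 10.1, 10.5 and 6.97 TPM in the carcinosarcomas, 6.67, 6.96 and 3.68 TPM in the carcinomas, 1.82, 2.1, 3.58 and 2.55 TPM in the glands and 1.26, 0.83 and 1.35 TPM in the non-TRIM24 tumors. Tumor 3956 lay only just above gland 417_3, its repeat library at 1.88 TPM was among the glands, and the change was 1.24 ± 0.30 (limma adjusted p = 0.0175). Cdk2, in contrast, was at 20.7, 18.1 and 18.5 TPM in the carcinosarcomas, 21.5, 25.4 and 26.4 TPM in the carcinomas, 15.4, 13.2, 30.98 and 24.8 TPM in the glands and 9.6, 7.38 and 11.3 TPM in the non-TRIM24 tumors. Gland 417_3 was the highest library, the 3 non-TRIM24 tumors were the lowest, and tumors and glands differed by 0.11 ± 0.26 (limma adjusted p = 0.811).

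Cyclins A and B and Cdk1, which drive entry into mitosis, were all called. Cdk1 was at 109.7, 94.3 and 151 TPM in the carcinosarcomas, 129, 157 and 92.4 TPM in the carcinomas, 10.03, 4.93, 28.9 and 29.9 TPM in the glands and 99.4, 17.7 and 57.4 TPM in the non-TRIM24 tumors. The lowest Trim24COE tumor had 3.09 times the level of the highest gland, tumor 219 fell among the Trim24COE tumors, and the change was 2.94 ± 0.44 (limma adjusted p = 0.00174; exact permutation p = 0.00476, two-sided, the smallest that 6 against 4 mice can give). Ccnb1, cyclin B1, was at 23.5, 24.9 and 34.2 TPM in the carcinosarcomas, 33.9, 46.5 and 20.1 TPM in the carcinomas, 3.02, 1.28, 9.72 and 6.89 TPM in the glands and 15.7, 1.63 and 11.1 TPM in the non-TRIM24 tumors. Its lowest Trim24COE tumor had 2.07 times the level of the highest gland, and the change was 2.52 ± 0.42 (limma adjusted p = 0.00304). Ccnb2 followed Ccnb1 with a change of 2.52 ± 0.40 (limma adjusted p = 0.00232). Ccna2, cyclin A2, was at 69.05, 49.5 and 34.1 TPM in the carcinosarcomas, 28.4, 39.7 and 19.2 TPM in the carcinomas, 5.18, 2.82, 13.3 and 11.5 TPM in the glands and 14.2, 1.76 and 9.16 TPM in the non-TRIM24 tumors, with carcinosarcoma 64 highest. Its change was 2.24 ± 0.43 (limma adjusted p = 0.00663).

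Among the mitotic kinases, Plk1, which acts at centrosomes and kinetochores, was at 25.3, 23.6 and 12.03 TPM in the carcinosarcomas, 22.5, 26.4 and 12.6 TPM in the carcinomas, 2.02, 1.15, 4.53 and 3.95 TPM in the glands and 17.3, 2.04 and 10.9 TPM in the non-TRIM24 tumors. The glands held at most 4.53 TPM and the Trim24COE tumors at least 12.03 TPM, a change of 2.49 ± 0.35 (limma adjusted p = 0.00134). Aurka, the centrosome kinase Aurora A, was at 41.96, 30.9 and 23.9 TPM in the carcinosarcomas, 20.96, 26.7 and 14.2 TPM in the carcinomas, 3.1, 2.34, 6.54 and 6.86 TPM in the glands and 13.7, 2.22 and 8.36 TPM in the non-TRIM24 tumors. All non-TRIM24 tumors were below all Trim24COE tumors, and the change against glands was 2.29 ± 0.35 (limma adjusted p = 0.00201). Bub1, a kinase of the spindle checkpoint, rose by 2.08 ± 0.37 (limma adjusted p = 0.00398) from 0.41 to 3.81 TPM in the glands to 6.5 to 13.3 TPM in the Trim24COE tumors. Its checkpoint partner Bub1b was at 2.06, 1.2, 15.4 and 8.46 TPM in the glands, where gland 417_3 exceeded 3 of the 6 tumors, and its change of 1.56 ± 0.55 had an adjusted p of 0.0728 in limma.

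The chromosomal passenger complex corrects faulty spindle attachments, and all 3 of its genes among the 46 were called. Birc5, which encodes survivin, was at 159.7, 106 and 106 TPM in the carcinosarcomas, 66.8, 95.5 and 48.5 TPM in the carcinomas, 9.22, 6.47, 13.8 and 15.8 TPM in the glands and 69.7, 8.64 and 40.8 TPM in the non-TRIM24 tumors. The glands lay between 6.47 and 15.8 TPM, the lowest Trim24COE tumor had 3.08 times the level of the highest gland, and the change of 2.97 ± 0.34 was the largest of the 46 genes (limma adjusted p = 0.000515). Cdca8, borealin, was at 49.6, 37.7 and 27.2 TPM in the carcinosarcomas, 32.5, 26.4 and 17.6 TPM in the carcinomas, 4.14, 2.5, 12.2 and 11.7 TPM in the glands and 22.5, 4.65 and 14.6 TPM in the non-TRIM24 tumors, a change of 2.08 ± 0.42 (limma adjusted p = 0.00797). Aurkb, the kinase of the complex, had the narrowest gap of the 3: 10.8 TPM in the lowest Trim24COE tumor, 897, and 10.2 TPM in the highest gland, 417_3, with a change of 1.37 ± 0.33 (limma adjusted p = 0.0186).

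At the kinetochore and spindle all 5 of the listed genes were called. Cenpa, the histone variant that marks centromeres, was at 103, 92.1 and 69.5 TPM in the carcinosarcomas, 73.1, 85.2 and 38.3 TPM in the carcinomas, 12.2, 7.29, 14.1 and 11.9 TPM in the glands and 44.7, 11.4 and 31.1 TPM in the non-TRIM24 tumors. The glands lay between 7.29 and 14.1 TPM and the Trim24COE tumors between 38.3 and 103 TPM, and the change was 2.62 ± 0.29 (limma adjusted p = 0.000428). Tpx2, which activates Aurora A on the spindle, was at 26.7, 28.8 and 27.1 TPM in the carcinosarcomas, 19.4, 29.96 and 12.2 TPM in the carcinomas, 2.62, 1.1, 8.43 and 7.53 TPM in the glands and 9.02, 1.6 and 6.95 TPM in the non-TRIM24 tumors (2.27 ± 0.44, limma adjusted p = 0.00652). Kif20a, a kinesin of cytokinesis, was at 15.8, 16.1 and 19.5 TPM in the carcinosarcomas, 17.8, 9.67 and 11.7 TPM in the carcinomas, 1.41, 0.64, 4.63 and 3.99 TPM in the glands and 7.23, 1.34 and 5.57 TPM in the non-TRIM24 tumors. Every non-TRIM24 tumor was below every Trim24COE tumor, and the change against glands was 2.27 ± 0.38 (limma adjusted p = 0.00293). Cenpe, a kinetochore motor, and Kif11, the motor that pushes spindle poles apart, changed by 1.88 ± 0.38 and 1.57 ± 0.45 (limma adjusted p = 0.00788 and 0.0359), and Kif11 was the only one of the 5 with a tumor, 897, below a gland, 417_3.

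Both genes among the 46 that act with the anaphase-promoting complex, which ends mitosis, were called. Ube2c, the ubiquitin-conjugating enzyme of the anaphase-promoting complex, was at 156, 144 and 113 TPM in the carcinosarcomas, 128, 98.97 and 79.8 TPM in the carcinomas, 12.98, 11.96, 19.2 and 21.8 TPM in the glands and 86.01, 16.7 and 51.2 TPM in the non-TRIM24 tumors. Its lowest Trim24COE tumor, 3956, had 3.66 times the level of the highest gland, 517_3, the widest such gap of the 46 genes, and FVB001 was at gland level. The change of 2.79 ± 0.25 had the smallest adjusted p of the set (0.000185, limma). Cdc20, an activator of the same complex, was at 72.03, 47.04 and 42.3 TPM in the carcinosarcomas, 45.04, 40.7 and 18.1 TPM in the carcinomas, 4.47, 3.39, 12.6 and 14.1 TPM in the glands and 38.3, 4.67 and 23.8 TPM in the non-TRIM24 tumors. Carcinoma 3956 was close above glands 417_3 and 517_3, and the change was 2.33 ± 0.44 (limma adjusted p = 0.00558). Called under all 22 alternative settings tried in this comparison were 12 genes: Cdk4, Ccne1, Ccnb1, Ccnb2, Cdk1, Plk1, Aurka, Bub1, Birc5, Cenpa, Kif20a and Ube2c.

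The replication and the mitotic genes were also set against each other as sums. The 18 genes of mitotic roles summed to 972, 797 and 746 TPM in the carcinosarcomas, 722, 795 and 451 TPM in the carcinomas, 84.4, 52.7, 198 and 181 TPM in the glands and 493, 82.7 and 312 TPM in the non-TRIM24 tumors. For the 10 replication genes the same sums were 721, 539 and 509 TPM in the carcinosarcomas, 456, 508 and 381 TPM in the carcinomas, 141, 144, 556 and 513 TPM in the glands and 275, 109.7 and 216 TPM in the non-TRIM24 tumors. The ratio of the mitotic to the replication sum was 1.18 to 1.58 in the Trim24COE tumors, 0.354 to 0.598 in the glands, and 1.79, 1.44 and 0.754 in tumors 219, FVB002 and FVB001. In the repeat libraries it was 1.21 for tumor 3956 (1.18 in the first library) and 0.584 for gland 133 (0.598 in the first library). The sums are descriptions over the members and were not tested.

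**Figure D4:**
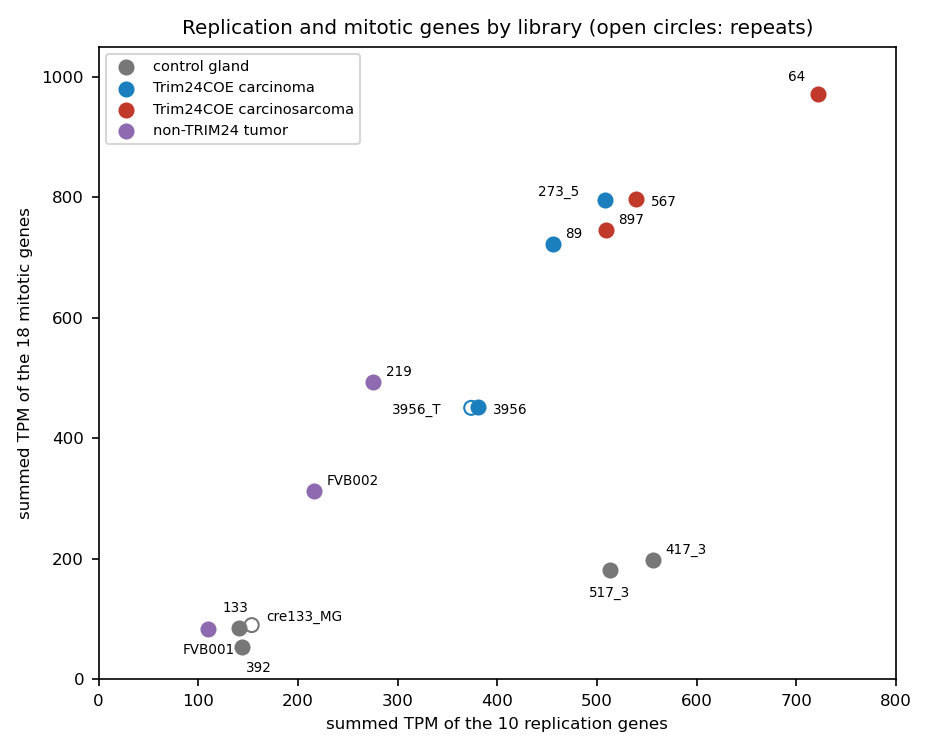
Summed TPM of the 18 mitotic genes (vertical) against that of the 10 replication genes (horizontal) in each library, with open circles for repeats. Glands 417_3 and 517_3 lie at 556 and 513 TPM of replication genes, among the Trim24COE tumors on that axis, but at 198 and 181 TPM of mitotic genes, where the lowest Trim24COE tumor has 451 TPM.

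By tumor class, the next comparisons asked how carcinosarcomas and carcinomas each differ from glands (3 against 4 mice). In carcinosarcomas 26 of the 46 genes were higher and 0 lower, where 9.83% and 13.1% of the 15287 genes tested were called, and the median change was 1.54 (all genes tested, -0.12), or 0.76 with the adipocyte covariate. In carcinomas 8 were higher and 0 lower, where 1.58% and 1.92% of the 15479 genes tested were called, and the median was 1.51 (all genes tested, 0.02), or 0.91 with the adipocyte covariate. The carcinoma calls were Ccne1, Ccnb1, Cdk1, Plk1, Aurka, Birc5, Cenpa and Ube2c, and each of them was also called in the carcinosarcomas. Ube2c changed by 3.01 ± 0.28 in carcinosarcomas and 2.58 ± 0.31 in carcinomas (limma adjusted p = 0.000979 and 0.0116), and Birc5 by 3.39 ± 0.34 and 2.55 ± 0.38 (limma adjusted p = 0.00115 and 0.0186). Top2a passed in the carcinosarcomas (2.82 ± 0.56, limma adjusted p = 0.011) and gave 2.00 ± 0.64 in the carcinomas (limma adjusted p = 0.124). Both comparisons use the same 4 glands. The counts depend on single mice: 9 genes were called in carcinosarcomas without tumor 64, 14 without tumor 567 and 17 without tumor 897, and carcinoma calls fell to 1 to 5 when any of the 7 mice was left out. Without glands 417_3 and 517_3, 41 genes were called in carcinosarcomas and 29 in carcinomas. In one fit of all groups of batch 1, 19 genes were called in carcinomas, and with glands 417_3 and 517_3 averaged, 2 genes were, beside 26 in carcinosarcomas.

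Directly compared, the classes gave no call among the 46 genes (3 against 3 mice, 0.113% of 14193 genes called higher in carcinosarcomas and 0.585% lower, limma). At an unadjusted p under 0.05, 3 of the 46 genes passed, Gins2, Ccnd3 and Birc5, a smaller share than the 15% of all genes tested, and nothing is read from them. Gins2, given by tumor above, was higher in carcinosarcomas by 0.80 ± 0.24 (limma adjusted p = 0.221), with all 3 carcinosarcomas above all 3 carcinomas in the first libraries. Birc5 differed by 0.84 ± 0.32 (limma adjusted p = 0.299) and Ccnd3 by 0.75 ± 0.28 (limma adjusted p = 0.288), again with no overlap between the first libraries of the classes. The repeat library of carcinoma 3956 had 34.82 TPM of Gins2, above carcinosarcoma 567 at 34.64 TPM. It had 76.08 TPM of Ccnd3, above carcinosarcoma 897 at 71.09 TPM. Top2a, Ccne2, Mcm4 and Cdt1 also did not overlap in the first libraries, nor did Cdk2, which was higher in the carcinomas. The share of all genes without overlap was not computed, so nothing is read from the lack of overlap. E2f8 gave -1.07 ± 0.61, with carcinomas 89 and 3956 highest (limma adjusted p = 0.446). Values were positive for 32 of the 46 genes with a median of 0.38, against -0.10 for all genes tested, and the median was 0.17 without carcinosarcoma 64 and likewise without carcinoma 3956. For a single gene, 3 against 3 mice cannot give an exact permutation p below 0.1, and the standard errors of the 46 log2 differences ran from 0.22 to 0.83.

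The order of the 6 tumors was counted over the 46 genes only, so whether it is particular to them was not tested. Carcinosarcoma 64 had the highest level of the 6 tumors for 21 of the 46 genes, among them 7 of the 10 replication genes. Carcinoma 273_5 was highest for 11 genes, 7 of them mitotic genes or proliferation markers. Carcinoma 3956 was lowest for 28 genes, among them 16 of the 20 mitotic genes and proliferation markers and 7 of the 10 replication genes, yet highest for Ccnd1, E2f2, E2f8 and Cdk2. In its repeat library 0 of 46 genes were over 2-fold from the first library on the log2(TPM + 1) scale and 3 were over 1.5-fold, and gland 133 had the same counts.

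The last comparisons asked how these genes stand beside spontaneous tumors of unknown genotype. Their fits used all 15 libraries with a batch term, and repeats of a mouse were linked, so that batch correction rests on 2 mice. Against control glands 0 of the 46 genes were called (limma; 9 at an unadjusted p under 0.05, as were 20.2% of all genes tested; 0.245% of 15541 genes called higher and 0.611% lower), with a median change of 0.13 (all genes tested, -0.30). Leaving out single mice turned that median's sign, from -0.20 without tumor 219, -0.07 without gland 392 and -0.02 without tumor FVB002 to 0.46 without tumor FVB001. The 3 tumors were unlike one another: FVB001 was the lowest of them for 44 of the 46 genes and 219 the highest for 37, and FVB001 also had the most adipocyte transcripts and the fewest epithelial transcripts of the 3. Their order was not counted over all genes. Ube2c had the smallest p, with 1.66 ± 0.45 (limma adjusted p = 0.0978), tumors 219 and FVB002 above all glands and FVB001 among them. Without FVB001, Birc5 and Ube2c were called, and with quantile normalization Ube2c was. Cdk2 gave -0.97 ± 0.32 (limma adjusted p = 0.138), Mcm6 -1.69 ± 0.74 (limma adjusted p = 0.229) and Ccnd1 -1.95 ± 0.90 (limma adjusted p = 0.245). In the first libraries all 3 tumors were below all 4 glands for Cdk2 and Ccne2, and above all 4 for Ccne1. The share of all genes without such overlap was not computed, so nothing is read from these.

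**Figure D5:**
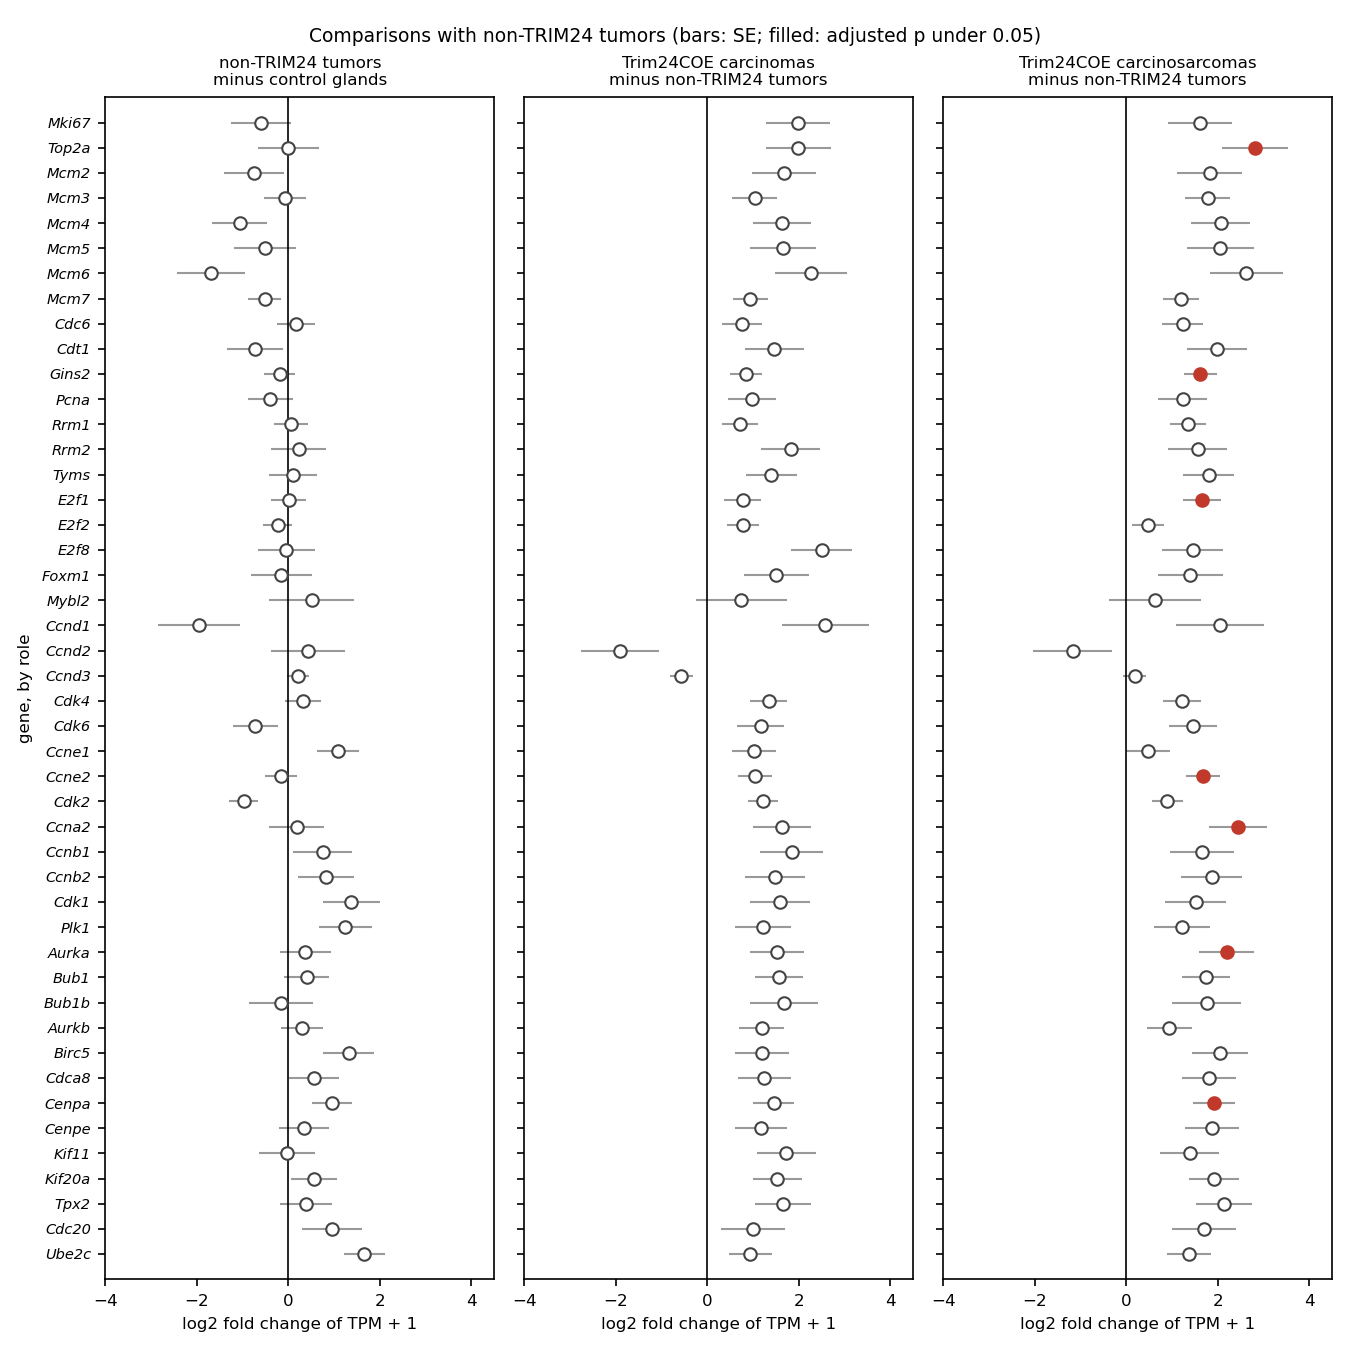
Log2 fold change of TPM + 1 with its standard error for the 46 genes in the 3 comparisons with non-TRIM24 tumors, filled where the adjusted p was under 0.05. In the first panel the points lie on both sides of 0 (Ccnd1 at -1.95, Ube2c at 1.66), in the second 44 of 46 are positive with none filled, and in the third 7 are filled.

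Against the non-TRIM24 tumors, Trim24COE carcinosarcomas had 7 of the 46 genes higher and 0 lower (limma, 3 against 3 mice; 4.31% of 14120 genes called higher and 2.04% lower), with a median of 1.65 against 0.22 for all genes tested. These were Ccne2 (1.69 ± 0.37, adjusted p = 0.0233), Gins2 (1.62 ± 0.36, adjusted p = 0.0237), Cenpa (1.92 ± 0.46, adjusted p = 0.0298), E2f1, Top2a, Ccna2 and Aurka, the last 4 with changes of 1.66, 2.82, 2.44 and 2.19. For each of the 7 all carcinosarcomas were above all non-TRIM24 tumors in the first libraries. The 7 were picked by this same comparison, so this adds no support to the calls, and these values also carry the batch. Trim24COE carcinomas had 0 of the 46 genes called against the same tumors (limma; 32 at an unadjusted p under 0.05, as were 18.9% of all genes tested; 0% of 14823 genes called higher and 0.0337% lower), with a median of 1.37 against 0.32 for all genes tested, or 0.90 without tumor FVB001. E2f8 gave 2.50 ± 0.66 (limma adjusted p = 0.145) and Cdk4 1.34 ± 0.41 (limma adjusted p = 0.166), and D cyclins Ccnd2 and Ccnd3 had negative values. The difference between the 2 sets of calls was not tested. For 28 of the 46 genes every non-TRIM24 tumor had a lower level than every Trim24COE tumor in the first libraries, which held for 21.4% of all genes with at least 1 TPM in 3 of these 9 libraries. This count also carries the batch. The 7 calls were 0 without tumor 64, 567, FVB001 or FVB002, 3 without tumor 897, 16 without tumor 219, 19 without a batch term and 0 when repeats entered as separate libraries.

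A wider list of 80 other genes of the same processes was examined beside the 46. In Trim24COE tumors against glands 48 of the 80 were called higher and 0 lower, beside the 7.96% and 9.13% of all genes tested: 37 of 43 mitosis genes, 9 of 27 replication genes and 2 of 10 genes of the E2F family and DREAM. The medians were 1.63, 0.84 and 0.20. The smallest adjusted p were those of Cks2, a small subunit of the Cdk1 complex (2.16 ± 0.32, limma adjusted p = 0.00182), Ccnf, cyclin F (1.88 ± 0.28, 0.00189), the kinesins Kif23 (2.06 ± 0.32, 0.00221) and Kif2c (1.93 ± 0.30, 0.00233), and Dbf4, the partner of the replication kinase Cdc7 (2.07 ± 0.33, 0.00257). For each of these every tumor was above every gland, which held for 7.39% of all genes tested. They were picked by p in the same comparison, so this adds no support to their calls. In the E2F family E2f4 (1.10 ± 0.27, limma adjusted p = 0.0196) and its dimer partner Tfdp1 (1.38 ± 0.28, limma adjusted p = 0.00823) were called. E2f3, E2f5, E2f6 and E2f7 gave 0.41 ± 0.33, 0.03 ± 0.28, -0.18 ± 0.26 and 0.27 ± 0.27, with limma adjusted p of 0.424 to 0.955. In the other comparisons 41 of the 80 were higher in carcinosarcomas than in glands (9.83% of all genes tested), 3 in carcinomas than in glands (1.58%), 11 in carcinosarcomas than in non-TRIM24 tumors (4.31%), and 0 in the remaining 3 (0 lower throughout).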

How the data were processed

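RNA of 15 libraries from 13 mice was sequenced. Per the study's methods, the authors estimated TPM per gene with RSEM. The values were deposited in a table for each batch. The study's methods and the labels differ on the aligner (STAR or TopHat), and the labels name Cufflinks and mm10. They also differ on the kits for RNA and libraries, and no filter or batch correction of the values is stated. The deposited tables hold no read counts, so depth is not known from them and counting error is not given. If RSEM made the values, it divides reads among similar genes, such as Pcna or Ccnb2 and their processed copies. Every TPM column belonged to a listed sample.

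Groups followed the labels. TPM was transformed as log2(TPM + 1), genes were kept that reached 1 TPM in a number of libraries equal to the mice of the smaller group, and groups were compared with limma 3.58.1 (R 4.3.3, moderated variances with a trend), with Benjamini-Hochberg adjustment over all genes tested and a threshold of 0.05. Fold changes are therefore on the log2(TPM + 1) scale, which understates changes of low genes. Comparisons of Trim24COE tumors and glands used the first libraries of batch 1. Where non-TRIM24 tumors entered, the fit took every library and had a term for batch, and repeat libraries of a mouse were linked by an estimated correlation of 0.954 to 0.956, which was kept when a mouse was left out. P-values measure the spread between mice. Single genes were also tested by exact permutation, two-sided. The 46 genes and all other lists were chosen with earlier results of these data known. Any member could be named. Chosen for full values were 31: Mki67, Top2a and up to 3 members of each role, those with a call in most of the 7 comparisons, ties going to the higher mean TPM. Mcm6, Pcna, Ccnd2 and Bub1b were added after their values were seen. From the wider list, the 5 smallest adjusted p-values and the E2F genes were named. Alternatives were other pseudocounts, no filter, upper quartile and quantile scaling, no variance trend, a shared fit, repeats averaged or entered separately, no batch term, an adipocyte marker covariate and the omission of each mouse. Added after seeing the data were fits with glands 417_3 and 517_3 averaged or left out and with glands 133 and 392 left out. The fitting code was tested on data with known changes. Promoter windows came from RefSeq.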

Additional observations from a re-analysis of the deposited data

Results flagged for a closer look

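Carcinoma 3956 stood apart from the other 5 Trim24COE tumors for 2 genes. Its Top2a level was 35.4 TPM, and the gap to the nearest tumor took 0.683 of the range of the 6 tumors on the log2(TPM + 1) scale. Its Cdc6 level was 3.36 TPM, with a gap of 0.645 of the range. Such gaps were sought in 62 sets of values (31 genes in 6 tumors and in 4 glands), and 2 were flagged. Chance gives about 1 in 20 per set, but the sets share the same mice and are not independent. Whether 2 flags are more than chance would give was therefore not tested. The repeat library of this tumor had 41.5 TPM of Top2a and 2.7 TPM of Cdc6, again below every other Trim24COE tumor. A repeat of the same tumor bears on the measurement and not on chance among tumors.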

How the results depend on the processing

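In Trim24COE tumors against glands, 30 genes were called, 12 with the adipocyte covariate, 16 without glands 133 and 392, and 21 (without gland 133) to 31 when single mice were left out. For carcinosarcomas the 26 calls became 15 with no filter, 41 without glands 417_3 and 517_3, and 9 (without tumor 64) to 31 without single mice. For carcinomas the 8 calls became 1 with no filter, 19 in one fit of all groups, 2 with glands 417_3 and 517_3 averaged, 29 without them, and 1 to 5 without single mice. For carcinosarcomas against non-TRIM24 tumors the 7 calls became 0 with no filter, 0 with libraries as separate, 19 with no batch term, and 0 to 16 without single mice. Non-TRIM24 tumors against glands gave 1 call with quantile normalization and 0 to 2 without single mice. The other 2 comparisons gave 0 calls in every setting. Directions turned only for genes without a call. Ccnd3 (0.02) fell to -0.054 with upper quartile scaling, -0.14 with quantile normalization, -0.043 with glands 417_3 and 517_3 averaged, -0.16 without them, and -0.11 to 0.15 without single mice. Ccnd1 (0.35) was -0.96 with the adipocyte covariate, -1.11 without glands 133 and 392, and -0.20 to 0.88 without single mice, and Cdk2 (0.11) was -0.30, -0.35, and -0.078 to 0.31. The cause was not tested. Scaling moved the median over all genes by more than 0.1 in 5 comparisons. With quantile normalization it went from -0.12 to 0.04 for carcinosarcomas against glands (the 46 genes, 1.54 to 1.81) and from -0.10 to 0.03 for carcinosarcomas against carcinomas (0.38 to 0.42). It also moved in the 3 comparisons with non-TRIM24 tumors, for instance from -0.30 to -0.02 against glands with quantile normalization, where the median of the 46 genes went from 0.13 to 0.33.
No paired analysis was possible because replicate names are names of mice, and no mouse is in more than one group.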
